A study of Mus musculus with 6 samples.

Results

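The phospholipid phosphatase-related genes Plppr1, Plppr2, Plppr3, Plppr4 and Plppr5, together with the phospholipid phosphatase genes Plpp1, Plpp2 and Plpp3, were followed as 8 of the 26264 genes in a table of read counts, picked by their symbols. The table holds 6 bulk RNA libraries from neural stem cells of the adult mouse spinal cord, of C57BL6J background, kept in culture with EGF and FGF2. Cells carrying a PDGFRaGFP reporter were sorted by fluorescence into 3 GFP-positive libraries, whose genotype is labelled PDGFRaGFP/+, and 3 GFP-negative libraries, whose genotype is labelled PDGFRaGFP/-. The labels do not say whether these genotype entries name an allele or the sorted fraction, nor whether replicates 1, 2 and 3, numbered 314, 315 and 316 in the titles of both fractions, stand for separate mice or cultures. The p-values below therefore cover the spread among these 6 libraries, which may be technical. The reporter reads out Pdgfra, the platelet-derived growth factor receptor of oligodendrocyte precursor cells, and the study asks how such cultures give rise to the oligodendrocyte lineage.

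Phospholipid phosphatases are membrane enzymes that remove the phosphate from lysophosphatidate, phosphatidate, sphingosine 1-phosphate and ceramide 1-phosphate, mostly at the outer face of the cell, and so end signalling by these lipids. The phospholipid phosphatase-related proteins, also called plasticity-related genes, share the membrane fold of the enzymes but lack residues of the catalytic site. In rodent neurons they are known for filopodia, neurite growth and, for Plppr4, the tuning of excitatory synapses through bioactive phospholipids.

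The family was taken up with values of this contrast known, after Plppr1 had stood out as one of the genes highest in GFP-positive cells. The fold changes of the 8 genes are therefore a description and carry no p-values here. All 8 passed the low-count filter, as did 14554 genes of the table. Total counts per library lay between 31067850 and 45207335, and intervals or floors from such depth would cover counting error only. Pdgfra itself stood at 237, 205 and 245 CPM (counts relative to library size, scaled with TMM) in GFP-positive replicates 1, 2 and 3, against 8.04, 19.3 and 13.9 CPM in GFP-negative replicates 1, 2 and 3. In bulk RNA, fewer cells of a type and less RNA per cell cannot be told apart.

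Of the 8 members, the Plppr genes that passed the threshold below rose in GFP-positive cells and the Plpp genes that passed it fell. Outside the members, Plpp4 and Plpp6 were higher in GFP-positive cells, and Plpp5 and Plpp7 did not pass. Of the 5 Plppr genes, 4 rose in GFP-positive cells (Plppr1, Plppr3, Plppr5 and Plppr2), 0 fell, and Plppr4 did not pass the threshold of an adjusted p below 0.05 in edgeR's quasi-likelihood test. Over all 14554 tested genes, 26.1% were called higher, 29.2% lower and 55.4% in either direction. Of the 3 Plpp genes, 2 fell (Plpp3 and Plpp1) and 0 rose, and Plpp2 did not pass the threshold. The median log2 fold change, GFP-positive minus GFP-negative, was 2.01 over the Plppr genes and -1.17 over the Plpp genes, beside -0.0058 over all tested genes. The libraries of both fractions did not overlap in CPM for 7 of the 8 genes, with all 5 Plppr genes higher and 2 Plpp genes lower in GFP-positive cells. Of all tested genes 64.2% did not overlap, 31.3% with higher and 33% with lower GFP-positive libraries. Because the genes were chosen with this contrast in view, these counts are not read as evidence about the family.

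**Figure D1:**
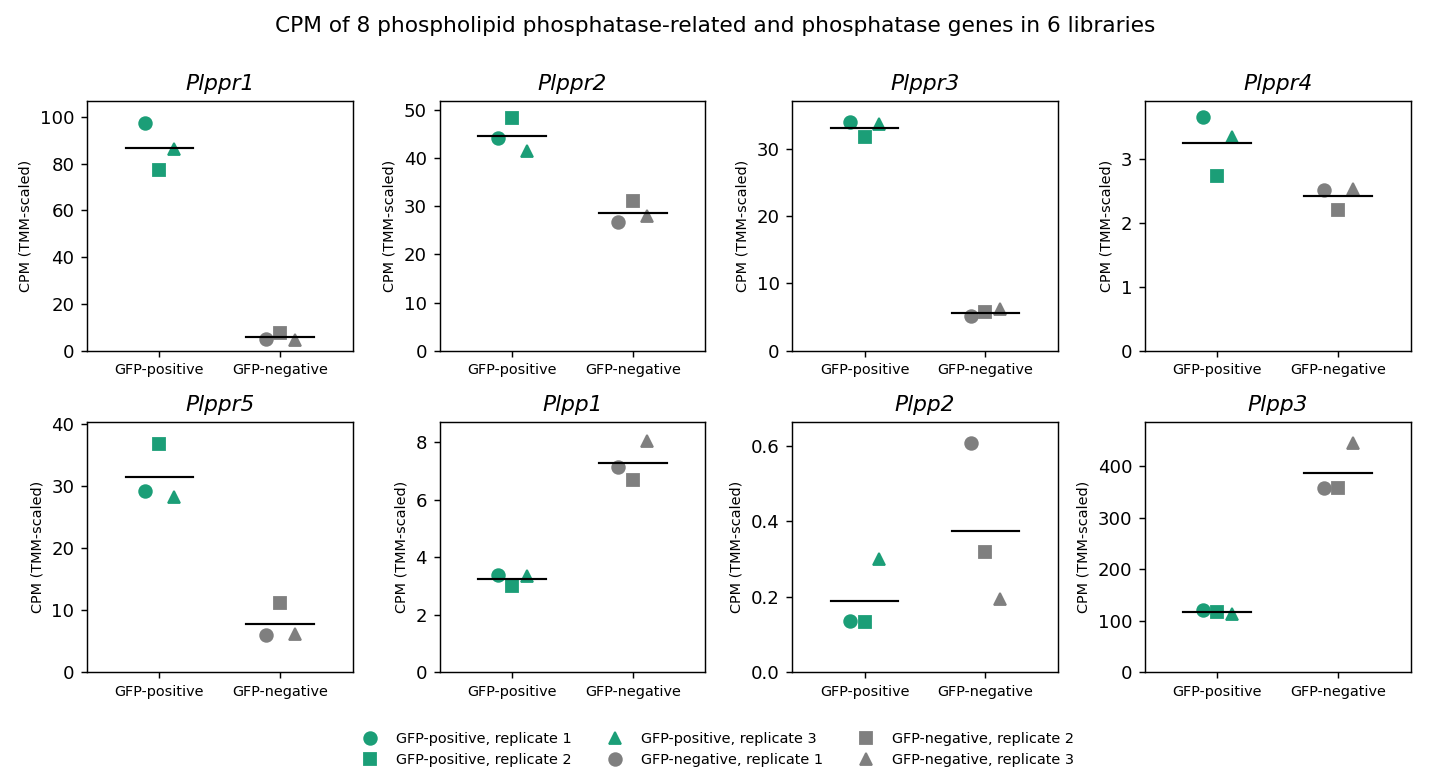
TMM-scaled CPM (linear axis from 0, a scale of its own in each panel) of the 8 genes in the GFP-positive (green, left) and GFP-negative (grey, right) libraries; circle, square and triangle are replicates 1, 2 and 3 and the line is the mean of 3. The fractions overlap in Plpp2 and stand apart in the other 7 genes, with Plppr1 at 77.2 to 97.3 CPM in GFP-positive cells and 4.70 to 7.65 CPM in GFP-negative cells.

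Plppr1 (Entrez 272031), a plasticity-related protein that promotes filopodia when expressed in cultured cells, had the largest fold change of the 8. Its counts were 3570, 3496 and 3170 in GFP-positive replicates 1, 2 and 3, against 164, 240 and 145 in GFP-negative replicates 1, 2 and 3. On the CPM scale this was 97.3, 77.2 and 86.2 in GFP-positive cells, against 4.97, 7.65 and 4.70 in GFP-negative cells. Replicate 2 was the lowest of the GFP-positive and the highest of the GFP-negative libraries, and the means were 86.9 ± 10.1 CPM in GFP-positive cells against 5.77 ± 1.63 CPM in GFP-negative cells (SD, n = 3 each). The log2 fold change was 3.91 (SE 0.18), a 15.04-fold higher level in GFP-positive cells, and ranked 13 from the top of 14554 genes. The same-numbered libraries differed by 4.29, 3.33 and 4.20 on the log2 scale in replicates 1, 2 and 3.

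Plppr3 (Entrez 216152), known in neurons as an axonal membrane protein, had the next largest difference and, in GFP-positive cells, the smallest relative spread of the Plppr genes. It stood at 33.9, 31.7 and 33.7 CPM in GFP-positive replicates 1, 2 and 3, against 5.16, 5.67 and 6.12 CPM in GFP-negative replicates 1, 2 and 3. All GFP-positive libraries lay far above all GFP-negative ones, and the GFP-positive values varied by a coefficient of variation of 3.59%. The log2 fold change was 2.55 (SE 0.09), which is 5.86-fold. In the GENCODE vM21 annotation 251 exonic bases of Plppr3 are shared with Ptbp1 on the opposite strand, 5.76% of its exonic length, and 159 with Prtn3. Ptbp1 had up to 5693 counts in a library and Prtn3 up to 6. The strand setting of the counting is not given in the sources used here, so reads from those stretches cannot be told apart.

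Plppr5 (Entrez 75769), a filopodia-inducing relative of Plppr1, was at 29.3, 36.8 and 28.2 CPM in GFP-positive replicates 1, 2 and 3, against 6.04, 11.2 and 6.19 CPM in GFP-negative replicates 1, 2 and 3. The fractions did not overlap, and replicate 2 was the highest library in both. The log2 fold change was 2.01 (SE 0.24), a 4.03-fold difference, and the differences within replicates 1, 2 and 3 were 2.28, 1.71 and 2.19.

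Among the GFP-negative libraries, Plppr1, Plppr2 and Plppr5 were highest in replicate 2. These are 3 of the 8 members (37.5%), a share near that of all tested genes (37.7%), so the order is not read as a trait of the family. Of the markers, replicate 2 was the highest GFP-negative library for 9 of 12 oligodendrocyte precursor markers (Pdgfra, Olig1, Olig2, Sox10, Gpr17, C1ql1, Lhfpl3, Dll3 and Nkx2-2) and for 1 of 10 astrocyte markers. Gpr17, a receptor of precursors entering differentiation, had 16.9, 26.6 and 19.4 CPM in GFP-negative replicates 1, 2 and 3. C1ql1, a secreted C1q-related protein, had 4.398, 14.3 and 5.18 CPM there. Cspg4, Ptprz1 and Neu4, of the same list, were not highest in GFP-negative replicate 2. Cspg4 had 208, 153 and 188 CPM in GFP-negative replicates 1, 2 and 3, and Neu4 0.0910, 0.0319 and 0 CPM. Of the 12 precursor markers 11 were higher in GFP-positive cells, and the list summed to 8371, 7756 and 8128 CPM in GFP-positive replicates 1, 2 and 3, against 5809, 5570 and 5790 CPM in GFP-negative replicates 1, 2 and 3. Ptprz1, a receptor phosphatase and the 1 marker not called, made up much of that sum, with 3326, 2933 and 3253 CPM in GFP-positive replicates 1, 2 and 3, against 3277, 2928 and 3474 CPM in GFP-negative replicates 1, 2 and 3. The other 11 markers summed to 5045, 4823 and 4875 CPM in GFP-positive replicates 1, 2 and 3. In GFP-negative replicates 1, 2 and 3 they summed to 2532, 2641 and 2316 CPM. This split was made after the values were seen. Olig1 and Olig2 made up much of these sums, with means of 2108 and 861 CPM in GFP-positive cells. Their GFP-negative means were 1488 and 543 CPM. Single markers among the 11 were higher in GFP-positive cells by 1.42-fold (Olig1) to 17.5-fold (C1ql1). The labels call the cultured cells neural stem cells, and no marker list of that type was used here. The part of these markers in the Plppr1, Plppr2 and Plppr5 values was not tested. Without both libraries of replicate 2 the log2 fold change was 4.25 for Plppr1 and 2.24 for Plppr5, and both stayed past the threshold.

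Plppr2 (Entrez 235044) had the smallest difference of the 4 genes that rose. It had 44.1, 48.3 and 41.4 CPM in GFP-positive replicates 1, 2 and 3, against 26.7, 31.1 and 27.9 CPM in GFP-negative replicates 1, 2 and 3. The fractions stood apart without overlap, and the log2 fold change was 0.64 (SE 0.09), or 1.56-fold. Plppr4 (Entrez 229791), the plasticity-related gene of glutamatergic synapses, was low in both fractions, at 3.65, 2.74 and 3.35 CPM in GFP-positive replicates 1, 2 and 3, against 2.52, 2.199 and 2.53 CPM in GFP-negative replicates 1, 2 and 3. Its libraries did not overlap, but the log2 fold change of 0.42 (SE 0.19) did not pass the threshold over all genes, in the main fit or in any of 16 other settings. Plppr4 and Plppr5 are neighbours on chromosome 3, on the minus and the plus strand, with 0 annotated genes between them in GENCODE vM21.

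Upstream sequences of the members were read from RefSeq for build GRCm38.p6, as the 250 bases before the annotated start. They were found for 7 of the 8 genes, all but Plpp1, in which no motif could be searched. Plppr2, Plppr3 and Plpp3 are shown: Plppr2 for its repeated octamers, and Plppr3 and Plpp3 as members of opposite direction. Capitals mark matches, on either strand, to the octamer ATGCAAAT, to the E-box CANNTG bound by basic helix-loop-helix factors such as Olig2, and to ACAAAG or ACAATG, cores bound by Sox proteins. The windows of Plppr1 and Plppr5 lie largely or wholly in exons annotated by GENCODE vM21 and are not printed.
Plppr2, chr9:21936760-21937009, + strand: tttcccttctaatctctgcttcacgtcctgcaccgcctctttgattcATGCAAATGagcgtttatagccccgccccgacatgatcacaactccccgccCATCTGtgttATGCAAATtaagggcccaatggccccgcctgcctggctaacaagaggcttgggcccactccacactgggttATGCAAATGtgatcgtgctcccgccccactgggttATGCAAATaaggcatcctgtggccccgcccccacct
Plppr3, chr10:79874635-79874884, - strand: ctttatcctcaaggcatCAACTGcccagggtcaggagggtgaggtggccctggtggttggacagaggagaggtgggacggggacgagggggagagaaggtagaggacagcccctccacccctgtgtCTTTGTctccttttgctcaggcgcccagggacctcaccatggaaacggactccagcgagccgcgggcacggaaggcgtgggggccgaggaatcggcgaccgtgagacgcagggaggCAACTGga
Plpp3, chr4:105157097-105157346, + strand: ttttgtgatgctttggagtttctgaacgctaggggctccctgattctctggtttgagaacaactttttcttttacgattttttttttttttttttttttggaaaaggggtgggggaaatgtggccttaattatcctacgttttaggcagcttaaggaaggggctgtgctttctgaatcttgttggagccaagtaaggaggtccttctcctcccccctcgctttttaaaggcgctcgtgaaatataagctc

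The Plppr2 window held the octamer, a motif read by POU domain factors, 4 times. Of 32851 windows of that length, 526 (1.6%) held it at least 1 time, and Plppr2 was the 1 window with 4 or more. This motif was searched after the sequence had been read. Windows with an E-box were Plppr2 with 3, of which 2 overlap an octamer, Plppr3 and Plppr4 with 2 each, and Plppr5 with 1, while 66.2% of all windows held at least 1. A Sox core was found 1 time each in Plppr3 and Plppr4, and in 25.2% of all windows. Plppr1 and Plpp3, the members with the largest differences in either direction, held none of these letters in this window. They differed in base composition, with 19 CG pairs in Plppr1 and 6 in Plpp3, beside a median of 6 over all windows. These matches describe the letters and say nothing of binding.

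Plpp3 (Entrez 67916), the phosphatase known for clearing lysophosphatidate and sphingosine 1-phosphate, and abundant in astroglia, was the member with the most counts. It stood at 122, 117 and 113 CPM in GFP-positive replicates 1, 2 and 3, against 357, 357 and 445 CPM in GFP-negative replicates 1, 2 and 3. Every GFP-positive library lay well below every GFP-negative one, and the means were 117 ± 4.34 CPM in GFP-positive cells against 387 ± 50.9 CPM in GFP-negative cells (SD, n = 3 each). GFP-negative replicate 3 was the highest. Its log2 fold change was -1.72 (SE 0.09), a level 3.30-fold lower in GFP-positive cells, and -1.58 without both libraries of replicate 3. The 10 astrocyte markers were also all lower in GFP-positive cells. They summed to 485, 620 and 555 CPM in GFP-positive replicates 1, 2 and 3, against 3899, 4207 and 4928 CPM in GFP-negative replicates 1, 2 and 3. Like Plpp3, the sum was highest in GFP-negative replicate 3. Among GFP-positive libraries it was lowest in replicate 1, where Plpp3 was highest. The part of the astrocyte marker difference in the Plpp3 values was not tested.

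Plpp1 (Entrez 19012), a broadly expressed lipid phosphate phosphatase, was also lower but much less abundant, at 3.38, 3.00 and 3.35 CPM in GFP-positive replicates 1, 2 and 3, against 7.16, 6.69 and 8.04 CPM in GFP-negative replicates 1, 2 and 3. The fractions did not overlap, and the log2 fold change was -1.17 (SE 0.14), or 2.25-fold lower. In GENCODE vM21, 452 exonic bases of Plpp1 (25.8%) are shared with Mtrex, an RNA helicase gene on the opposite strand with up to 5773 counts in a library, so part of the Plpp1 count is uncertain without the strand setting. Plpp2 (Entrez 50784), the remaining phosphatase, was near the limit of detection, with 5, 6 and 11 counts in GFP-positive replicates 1, 2 and 3, against 20, 10 and 6 counts in GFP-negative replicates 1, 2 and 3. Its fractions overlapped, and its log2 fold change of -0.99 (SE 0.57) did not pass the threshold. A difference in Plpp2 was not detectable at this depth.

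**Figure D2:**
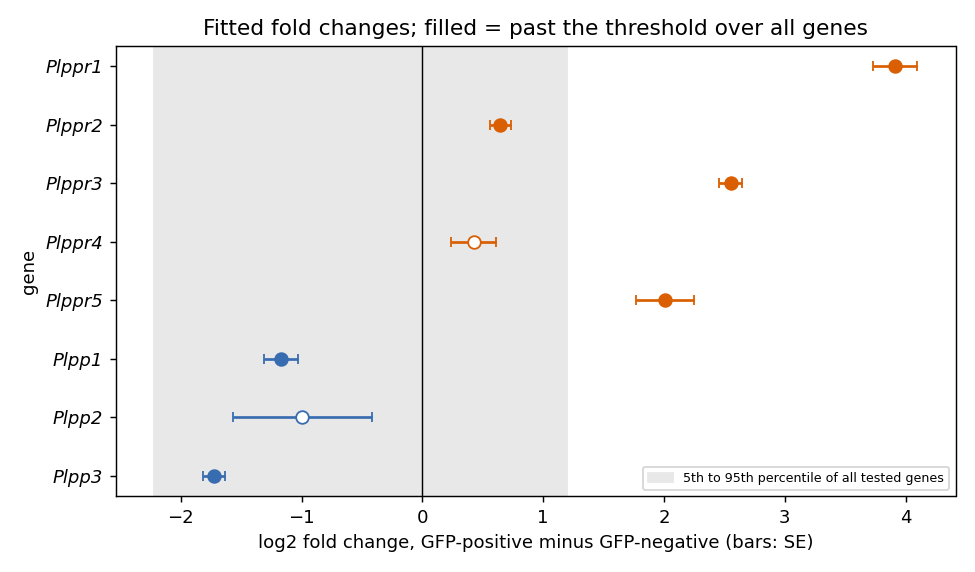
Fitted log2 fold change, GFP-positive minus GFP-negative, of the 8 genes (horizontal axis; bars are SE), with filled points past the threshold over all genes and open points not past it. Plppr1, Plppr3 and Plppr5, at 3.91, 2.55 and 2.01, lie above the grey band that spans the 5th to 95th percentile of all tested genes (-2.22 to 1.199), and Plpp3 at -1.72 lies inside it.

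Levels of different genes were set beside each other per kilobase of exon (RPKM here, from CPM and the exonic length in GENCODE vM21). In GFP-positive cells the order was Plpp3 at 37.1 ± 1.37, Plppr2 at 16.2 ± 1.28, Plppr1 at 11.95 ± 1.38, Plppr3 at 7.60 ± 0.273, Plppr5 at 6.71 ± 0.999, Plpp1 at 1.85 ± 0.119, Plppr4 at 0.454 ± 0.0651 and Plpp2 at 0.114 ± 0.0576 RPKM (SD, n = 3). Plppr3 and Plppr5 overlapped in this order and the other neighbours did not. In GFP-negative cells it was Plpp3 at 122 ± 16.1, Plppr2 at 10.4 ± 0.817, Plpp1 at 4.17 ± 0.390, Plppr5 at 1.67 ± 0.629, Plppr3 at 1.30 ± 0.111, Plppr1 at 0.794 ± 0.224, Plppr4 at 0.338 ± 0.0261 and Plpp2 at 0.226 ± 0.128 RPKM (SD, n = 3). Here Plppr5 overlapped Plppr3, and Plppr4 overlapped Plpp2. Plppr1 was the third of the 8 genes in GFP-positive cells and the sixth in GFP-negative cells. Which transcripts the cells use was not measured, and it bears on these levels.

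**Figure D3:**
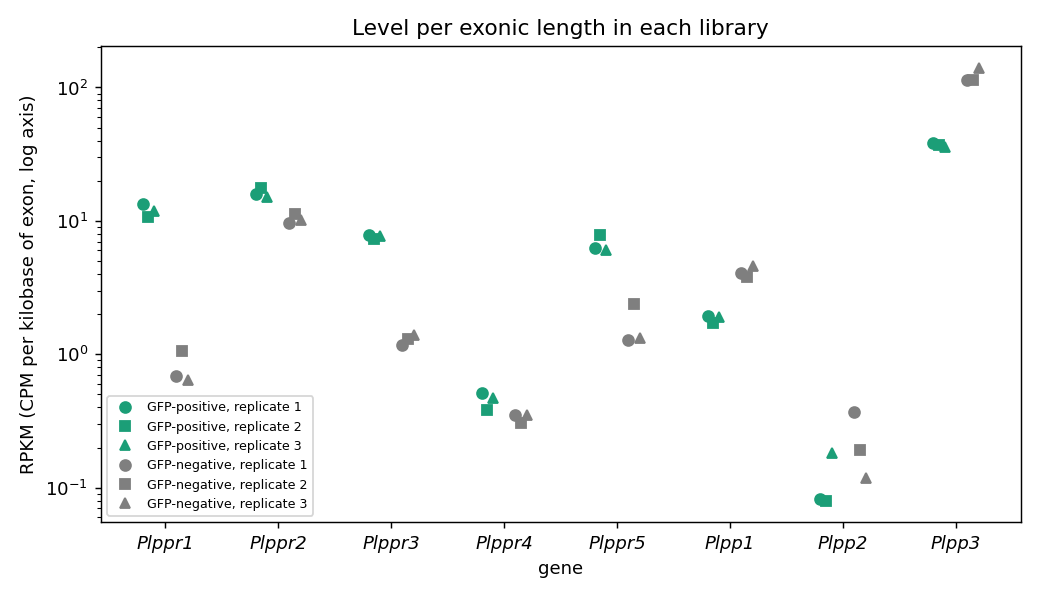
Level per kilobase of exon (RPKM, log axis) of the 8 genes in each library, GFP-positive in green left of GFP-negative in grey, with circle, square and triangle for replicates 1, 2 and 3. Plpp3 is the highest gene in both fractions, and Plppr1 lies near 11.95 RPKM in GFP-positive cells and near 0.794 RPKM in GFP-negative cells.

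The make-up of the Plppr group differed between the fractions on this scale. Plppr1 made up 27.9% ± 3.19 of the summed Plppr RPKM in GFP-positive libraries and 5.42% ± 0.914 in GFP-negative ones, while Plppr2 made up 37.8% ± 2.12 in GFP-positive and 71.9% ± 2.45 in GFP-negative libraries (SD, n = 3 each). Of the summed RPKM of Plpp1, Plpp2 and Plpp3, Plpp3 made up 94.96% ± 0.454 in GFP-positive and 96.5% ± 0.285 in GFP-negative libraries (SD, n = 3 each). The Plpp sum here holds these 3 genes only. Left out were Plpp4, Plpp5, Plpp6 and Plpp7, with means of 6.78, 9.83, 9.88 and 7.70 CPM in GFP-positive cells. In GFP-negative cells their means were 1.58, 10.9, 6.53 and 6.07 CPM. The summed Plppr level was 42.9 ± 1.57 RPKM in GFP-positive and 14.5 ± 1.65 RPKM in GFP-negative cells, and the summed Plpp level 39.0 ± 1.35 RPKM in GFP-positive and 127 ± 16.4 RPKM in GFP-negative cells (SD, n = 3 each). The ratio of the Plppr to the Plpp sum was 1.09, 1.13 and 1.09 in GFP-positive replicates 1, 2 and 3, against 0.113, 0.140 and 0.0953 in GFP-negative replicates 1, 2 and 3. These sums rest on the same contrast and are a description.

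The Plppr genes are best known from neurons, and neuronal markers were therefore read beside them. The 9 neuronal markers summed to 36.0 to 44.8 CPM in GFP-positive libraries and 10.8 to 19.4 CPM in GFP-negative ones, and of the 5 that were tested Snap25, Syt1 and Rbfox3 were higher in GFP-positive cells. Gad1 and Gad2, enzymes of GABA synthesis, were not called: Gad1 averaged 1.65 CPM in GFP-positive cells against 1.21 CPM in GFP-negative cells, and Gad2 2.86 CPM in GFP-positive cells against 3.92 CPM in GFP-negative cells. Replicate 2 was the highest GFP-negative library for 4 of these 5 (Snap25, Syt1, Rbfox3 and Gad1), where 37.7% of all tested genes were highest in it. Stmn2, Slc17a7 and Slc32a1 stayed below 1 CPM in every library and Slc17a6, a vesicular glutamate transporter that defines excitatory neurons, had 0 counts in all 6. Microglial markers, and fibroblast and mural markers, each reached at most 2.65 CPM in any library. Endothelial markers reached 9.79 CPM in GFP-negative replicate 3 and at most 2.15 CPM in GFP-positive libraries, ependymal markers 4.604 to 6.01 CPM in GFP-positive and 11.1 to 17.3 CPM in GFP-negative libraries, and Schwann cell markers 24.5 to 35.6 CPM in GFP-positive and 22.3 to 32.5 CPM in GFP-negative libraries, mostly from Egr2. Markers of myelinating oligodendrocytes summed to 27.8 to 42.1 CPM in GFP-positive and 18.5 to 20.4 CPM in GFP-negative libraries, with 5 of the 8 below 1 CPM in every library. The part of these markers in the Plppr values was not tested.

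The genes whose profile over the 6 libraries lay closest to Plppr1 were Stk32a, a kinase, Gpr17, Slc1a1, a glutamate transporter, Kit, the stem cell factor receptor, and Phactr3, a phosphatase and actin regulator. Their root mean square differences from Plppr1, on log2 CPM centred for each gene, were 0.0776, 0.176, 0.217, 0.230 and 0.250. The nearest of the other 7 members, Plppr3, lay at 0.734. Among the closest to Plpp3 were Glul, the glutamine synthetase of astroglia, Raver2, Slc16a9 and Il10rb, at 0.0462, 0.0524, 0.0709 and 0.0787. Plpp1 lay at 0.290 from Plpp3. The measure takes in the size of the difference between the fractions as well as the spread within them, and says nothing of shared function.

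The enzymes and receptors around the family were read from 5 lists written by role, of 66 genes, of which 58 passed the low-count filter. Of these 13 rose and 28 fell in GFP-positive cells, 70.7% of those tested. Of all tested genes 55.4% were called, 26.1% higher and 29.2% lower. In the order given below, the lists had 55.6%, 75%, 61.5%, 77.8% and 80% of their tested genes called. The share of the first list is near that over all genes, so its count is not read as a trait of that list. The median log2 fold change over the 5 lists was -0.20, beside -0.0058 over all tested genes.

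Among the relatives of the same protein superfamily, 2 of 9 tested genes rose (Plpp4 and Plpp6) and 3 fell (Sgms2, Samd8 and G6pc3). Plpp4, a further lipid phosphatase of the Plpp series, was at 7.82, 6.14 and 6.39 CPM in GFP-positive replicates 1, 2 and 3, against 1.33, 1.94 and 1.46 CPM in GFP-negative replicates 1, 2 and 3. The fractions did not overlap, and the log2 fold change was 2.101 (SE 0.20, edgeR adjusted p = 7.41e-05). Plpp6, a phosphatase of isoprenoid diphosphates, was higher by 0.60 (SE 0.11, edgeR adjusted p = 0.00197). Sgms2, a sphingomyelin synthase, was lower at -1.84 (SE 0.35, edgeR adjusted p = 0.0024). Plpp4 and Plpp6 differed in direction from Plpp1 and Plpp3. With the title number as a block Plpp7 was also called, at 0.34 (edgeR adjusted p = 0.0457). The calls of Samd8 and G6pc3 were lost without GFP-positive replicate 3 (edgeR adjusted p = 0.0512 and 0.0848), without both libraries of replicate 1 (edgeR adjusted p = 0.0557 and 0.201) and without those of replicate 3 (0.0745 and 0.212), and in each of these settings 1 gene of the list was lower. G6pc3 lost its call in 7 of 16 other settings, also without GFP-positive replicate 1 (edgeR adjusted p = 0.0844), GFP-positive replicate 2 (0.064), GFP-negative replicate 1 (0.0944) or GFP-negative replicate 3 (0.0961).

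Of the receptors for lysophosphatidate and sphingosine 1-phosphate, the lipids that the Plpp enzymes degrade, 2 of 8 tested rose and 4 fell. S1pr1, a sphingosine 1-phosphate receptor, had 1.53, 4.11 and 2.94 CPM in GFP-positive replicates 1, 2 and 3, against 37.2, 51.5 and 57.4 CPM in GFP-negative replicates 1, 2 and 3. All GFP-positive libraries were far below the GFP-negative ones, and the log2 fold change was -4.07 (SE 0.32, edgeR adjusted p = 2.63e-05). S1pr2 was higher by 0.76 (SE 0.11, edgeR adjusted p = 0.000599), with means of 14.2 CPM in GFP-positive libraries, against 8.43 CPM in GFP-negative libraries. S1pr5, a receptor known in oligodendrocytes, was higher by 2.26 (SE 0.46, edgeR adjusted p = 0.00356) at low levels of 0.817 to 1.31 CPM in GFP-positive libraries, against 0.0956 to 0.364 CPM in GFP-negative libraries. Lpar6, Lpar2 and Lpar1, receptors for lysophosphatidate, were lower at -0.90, -1.18 and -2.17 (edgeR adjusted p = 0.000849, 0.0014 and 0.0126). Lpar1 stayed at or below 1.18 CPM in each library and lost its call without both libraries of replicate 3 (edgeR adjusted p = 0.0712), and its log2 fold change was -1.52 without GFP-negative replicate 2. That of S1pr5 was 2.85 without GFP-negative replicate 1. With the block S1pr3 was also lower, at -1.80 (edgeR adjusted p = 0.0101). S1pr5, Lpar2, Lpar1, S1pr3 and, in the next list, Enpp2 were named after their values were seen.

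Genes that supply or remove these lipids were called in 8 of 13 tested cases, with 2 higher and 6 lower. That share, 61.5%, is near the 55.4% over all tested genes. Spns2, the exporter of sphingosine 1-phosphate, was at 23.8, 27.2 and 28.04 CPM in GFP-positive replicates 1, 2 and 3, against 5.03, 4.30 and 4.24 CPM in GFP-negative replicates 1, 2 and 3. The fractions were fully apart and the log2 fold change reached 2.54 (SE 0.11, edgeR adjusted p = 2.78e-06). Enpp2, the secreted enzyme autotaxin that makes lysophosphatidate, was higher by 0.75 (SE 0.13, edgeR adjusted p = 0.00157), with 66.7, 74.5 and 79.6 CPM in GFP-positive replicates 1, 2 and 3, against 36.3, 52.2 and 43.3 CPM in GFP-negative replicates 1, 2 and 3. Sphk1, a sphingosine kinase, was at 0.872, 0.706 and 0.571 CPM in GFP-positive replicates 1, 2 and 3, against 10.3, 10.2 and 8.33 CPM in GFP-negative replicates 1, 2 and 3. It was lower in every GFP-positive library, at -3.74 (SE 0.20, edgeR adjusted p = 5.1e-06). Asah1, the acid ceramidase, was lower at -0.79 (SE 0.06, edgeR adjusted p = 2.18e-05). Liph, a phospholipase that makes lysophosphatidate, counted among the lower genes at -1.06 but lost its call in 12 of 15 other settings, the block among them (edgeR adjusted p = 0.062).

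Of 18 tested enzymes that make or use phosphatidate and diacylglycerol, 5 rose and 9 fell. Dgkb, a diacylglycerol kinase, was at 14.5, 16.2 and 13.7 CPM in GFP-positive replicates 1, 2 and 3, against 74.5, 84.3 and 86.4 CPM in GFP-negative replicates 1, 2 and 3, so that the log2 fold change was -2.47 (SE 0.09, edgeR adjusted p = 1.79e-06). The phospholipases Pld1 and Pld2, which make phosphatidate, were lower at -1.92 and -2.64 (edgeR adjusted p = 4.59e-06 and 2.44e-05). Dgkd, another diacylglycerol kinase, was higher by 0.64 (SE 0.06, edgeR adjusted p = 9.67e-05). The other 4 higher genes are also diacylglycerol kinases, named after their values were seen: Dgke at 0.56, Dgkh at 0.37, Dgka at 0.34 and Dgkq at 0.23 on the log2 scale. Dgkh and Dgkq lost their call in 7 and 5 of 16 other settings. The count of higher genes in this list was 3 without GFP-positive replicate 1, GFP-positive replicate 3, GFP-negative replicate 3 or both libraries of replicate 1, and 2 without both libraries of replicate 3.

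Of 10 tested genes in the list of glycerol phosphate acyltransferases, which also holds acyltransferases of other lysophospholipids, 2 rose and 6 fell. Agpat3 and Lclat1, acyltransferases of lysophospholipids, were lower at -0.63 and -0.62 (edgeR adjusted p = 0.000159 and 0.000624). Lpgat1, which acylates lysophospholipids, was higher by 1.29 (SE 0.15, edgeR adjusted p = 0.000181), at 37.7, 39.7 and 38.3 CPM in GFP-positive replicates 1, 2 and 3, against 14.4, 19.95 and 13.03 CPM in GFP-negative replicates 1, 2 and 3. The fractions did not overlap in Lpgat1. The other higher gene, Agpat4, stood at 0.44 and lost its call without both libraries of replicate 3 (edgeR adjusted p = 0.0611), where 1 gene of the list was higher. Agpat4 was named after its values were seen.

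**Figure D4:**
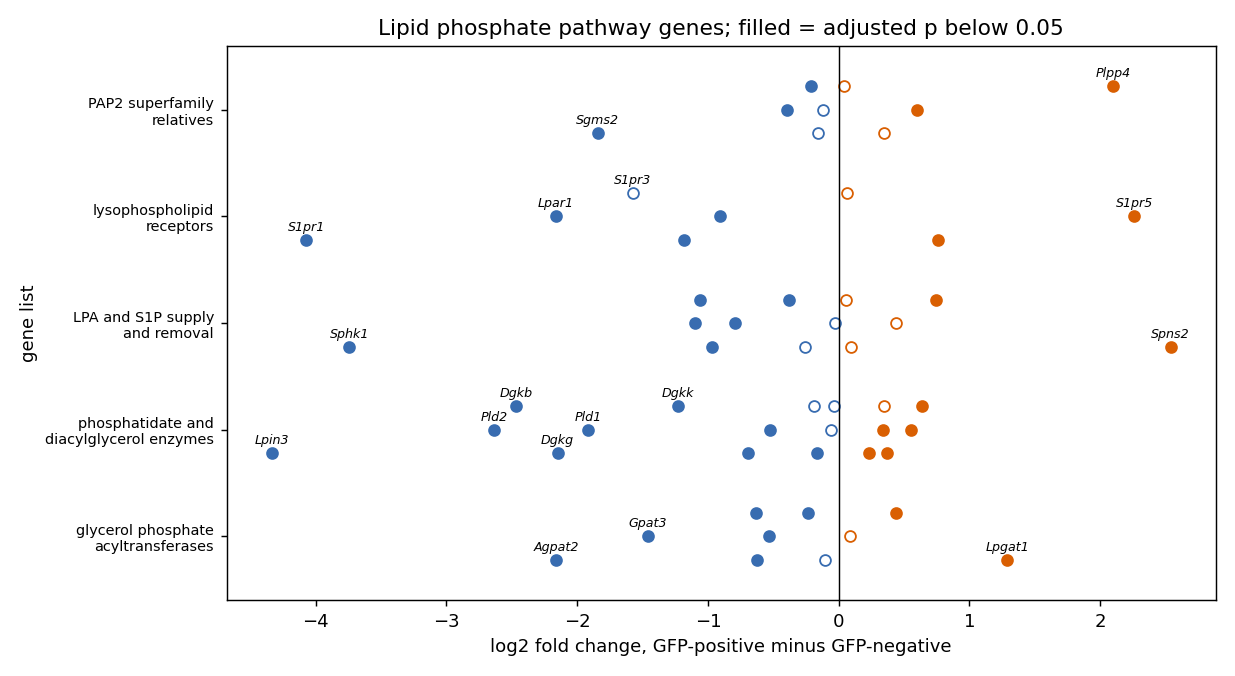
Log2 fold change, GFP-positive minus GFP-negative, of the 58 tested genes in 5 lists around the family, 1 point per gene, filled where the adjusted p was below 0.05 and named where the change exceeded 1.2 in size. LPA is lysophosphatidate and S1P is sphingosine 1-phosphate. Spns2 at 2.54 lies farthest to the right, and Lpin3 at -4.34, S1pr1 at -4.07 and Sphk1 at -3.74 farthest to the left.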

How the data were processed

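Raw read counts per gene were deposited by the authors, per the file headers, with no normalization. The submitters' processing notes name TopHat2 2.1.1, SAMtools 1.9, featureCounts 2.0.0 and build mm39, and per the labels' protocols the SMART-Seq Stranded chemistry was used for cDNA; the annotation and strand setting of the counting were not given in the sources used here. Counts were tested with edgeR 4.0.16 (R 4.3.3): TMM scaling, filterByExpr, quasi-likelihood F test, Benjamini-Hochberg adjustment over 14554 genes. SE is the size of the log2 fold change over the root of its F value. Libraries of 1 group differed beyond counting noise (chi-square over degrees of freedom 9.83 to 34.2, over genes whose counts sum to 20 or more). Same-numbered libraries deviated together (r = 0.218, 0.355 and 0.159, all above 0.1), so the numbers were taken to pair them. Of the 6 pairs of unlike number, GFP-positive replicate 3 with GFP-negative replicate 1 also lay above that limit (r = 0.128). The main fit, with its SE and adjusted p-values, leaves this pairing out. Only the alternative with the title number as a block takes it in. The fit was tested on simulated counts with few changed genes, the same spread for all genes and no effect of the title number. That test does not bear on the pairing.

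Members and lists were chosen with earlier results of these data known. Named genes were the 8 members, Pdgfra, in each list the 3 called genes of smallest p and the first of the other direction, and the 5 nearest profiles (prior count 2) of Plppr1 and Plpp3, of which 1 is not reported here. Exonic lengths and overlaps are from GENCODE vM21 (GRCm38) and promoters from RefSeq (GRCm38.p6), a build other than mm39, matched by symbol. Alternatives were RLE and upper-quartile scaling, no filter, a CPM of 1 in 3 libraries, DESeq2 1.42.0, limma 3.58.1 voom, the title number as a block, and leaving out each library or number.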

Additional observations from a re-analysis of the deposited data

How the results depend on the processing

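The 6 members past the threshold kept their direction and call in all 16 alternatives, and Plppr4 and Plpp2 passed in none. Over all genes, the fits that left out libraries called 2450 to 4169 higher and 2951 to 4468 lower, with the lowest counts without replicate 3, against 3804 and 4254. Fewer libraries enter those fits. They called 9 to 14 of the listed pathway genes higher and 20 to 28 lower, against 13 and 28. With the replicate block 3918 genes were higher and 4422 lower, 4 and 2 of them members; Liph lost its call (edgeR adjusted p = 0.062), Plpp7 and S1pr3 gained one, and no other listed gene changed its call. With a CPM of at least 1 in 3 libraries Plpp2 was not tested and 1 receptor, S1pr2, was higher. The log2 fold change of Plpp2 was -0.27 without replicate 1 and -1.76 without replicate 3; it had 5 to 20 counts a library, and the cause was not tested. The median log2 fold change of all genes was 0.0012 with RLE and -0.0238 with upper-quartile scaling.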

Other observations

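Among the listed lipid genes, Dgkg, a diacylglycerol kinase, had 1.93, 1.59 and 1.74 CPM in GFP-positive replicates 1, 2 and 3, against 10.6, 2.199 and 10.6 CPM in GFP-negative replicates 1, 2 and 3. The low GFP-negative library was replicate 2. Dgkg was lower at -2.15 (edgeR adjusted p = 0.00842) and lost its call with limma-voom (adjusted p = 0.053), without replicate 1 (edgeR adjusted p = 0.0814) and without replicate 3 (0.0845). Aldh1l1, an astrocyte marker, had 1.199, 11.02 and 1.496 CPM in GFP-positive replicates 1, 2 and 3, against 15.2, 121 and 26.9 CPM in GFP-negative replicates 1, 2 and 3, and was highest in replicate 2 of both fractions. Lpin3, a phosphatidate phosphatase of the lipin family, had 0, 5 and 3 counts in GFP-positive replicates 1, 2 and 3, against 56, 23 and 56 counts in GFP-negative replicates 1, 2 and 3. Its log2 fold change was -4.34 (edgeR adjusted p = 0.000886), with -4.98 without GFP-positive replicate 2, -3.66 without replicate 1 and -5.30 without replicate 2. These genes were picked after their values were seen.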
